A study of Mus musculus with 6 samples.

Results

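Enzymes that desaturate or elongate fatty acids or couple them to coenzyme A were followed in liver macrophages of WT mice and of mice with incomplete myeloid deletion of *Lpcat3*. The members were the genes that carry the GENCODE M21 symbols *Fads1*, *Fads2*, *Fads3*, *Scd2*, *Elovl1*, *Elovl5*, *Acsl1*, *Acsl3*, *Acsl4* and *Acsl5*, 10 of the 49315 genes listed. All 10 passed the filter on low counts, with at least 168 counts in every library, and were among the 16134 genes tested. The cells were F4/80-positive liver cells, purified with magnetic beads from the supernatant of collagenase-digested livers and labelled as Kupffer cells, which are macrophages that reside in the liver. They came from 3 WT littermates (*Lpcat3* fl/fl, *LysM* +/+) and 3 Lpcat3 KOMac mice (*Lpcat3* fl/fl, *LysM* Cre/+) on a C57BL/6N background, untreated and fed a high-fat diet (60% fat) for 16 weeks from young adulthood. The study used both sexes, and the sex behind each library is not given in the sources used here. Both groups thus carried the floxed *Lpcat3* alleles, and only the Lpcat3 KOMac mice carried Cre, which is driven from the lysozyme 2 gene and acts in myeloid cells, granulocytes included, with incomplete deletion.

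Long-chain polyunsaturated fatty acids such as arachidonic acid are built from dietary linoleic acid by alternating desaturation and elongation in the endoplasmic reticulum. Acyl-CoA synthetases activate free fatty acids to acyl-CoA, and LPCAT3 transfers the acyl group, arachidonate above all, to the sn-2 position of lysophospholipids. Hepatocytes are known as a main site of this synthesis, while macrophages can also take the finished fatty acids up and activate them with the synthetase ACSL4, which prefers arachidonic acid.

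The labels were checked first. Values are listed in the order of mice 1, 2 and 3 of each genotype. *Lpcat3* was at 85, 66.2 and 61.2 CPM (counts scaled to 1e6 by the TMM-normalized library size) in WT and at 19.5, 33.3 and 19.4 CPM in Lpcat3 KOMac mice. Every Lpcat3 KOMac library was below every WT library, the log2 fold change being -1.56 (standard error 0.26, unadjusted p = 0.00119 and adjusted p = 1 in edgeR, adjusted p = 0.0028 in DESeq2). Total counts lay between 44954224 and 71392812 per library. Kupffer cell markers were abundant in all libraries, *Cd5l* at 8317 to 11785 CPM, and all 8 of the list had negative log2 fold changes. *Clec4f* was at 9170, 12171 and 8772 CPM in WT and 7361, 6449 and 8331 CPM in Lpcat3 KOMac mice, without overlap. Its log2 fold change was -0.44 (standard error 0.17, unadjusted p = 0.0423 in edgeR), and 5.2% of all genes tested were separated in that direction. Single Kupffer cell genes varied widely between mice: *Marco* ran from 148 CPM in Lpcat3 KOMac mouse 2 to 3168 CPM in WT mouse 2, and *Timd4* from 123 to 938 CPM in the same mice. As sums, hepatocyte genes differed more (11.9-fold) than Kupffer cell genes (1.77-fold). The summed level of 8 hepatocyte genes was 22852, 2068 and 1920 CPM in WT and 5217, 14131 and 4990 CPM in Lpcat3 KOMac mice. WT mouse 1 and Lpcat3 KOMac mouse 2 therefore stood apart from the other libraries in hepatocyte transcripts, one in each genotype. Results that rest on them are also given without them. In bulk RNA, more cells of a type and more RNA per cell cannot be told apart. Nothing in the labels names a batch.

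Among the 10 genes, *Scd2* and *Acsl3* were higher in every Lpcat3 KOMac mouse than in every WT mouse, *Elovl1*, *Acsl4* and *Acsl5* varied little between any of the mice, and *Fads1*, *Fads2*, *Elovl5* and *Acsl1* were highest in the libraries richest in hepatocyte transcripts. *Fads3* was low throughout. At an adjusted p-value under 0.05 in edgeR's quasi-likelihood test, 0 of the 10 genes were called, against a background of 0.0% of all genes tested. At an unadjusted p-value under 0.05, 2 of the 10 passed, both higher in Lpcat3 KOMac cells, where 1.07% of all genes tested passed in that direction, 1.57% in the other and 2.64% in either. The same 2 genes did not overlap between the genotypes, a separation that 2.29% of all genes tested showed in that direction, and 0 members were separated in the other direction, where the background was 5.2%. The median log2 fold change of the members was 0.05, beside -0.04 for all genes tested. The Wald test of DESeq2 also called 0 of the 10, against a background of 0.093%, and 2 members passed 0.05 there before adjustment. Leaving out WT mouse 1 brought the number of members that passed 0.05 before adjustment in edgeR to 4, and leaving out Lpcat3 KOMac mouse 2 as well brought them to 5, while among all genes the number went from 426 to 2028 and 1767. In both of these fits the hepatocyte sum was higher in every remaining Lpcat3 KOMac mouse than in every remaining WT mouse. A DESeq2 fit that also held the hepatocyte level, added once the data had been seen, called *Scd2* and *Acsl3*, where the background was 0.992% of all genes. At 3 mice per genotype, the smallest two-sided p that exact permutation can reach is 0.1.

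**Figure D1:**
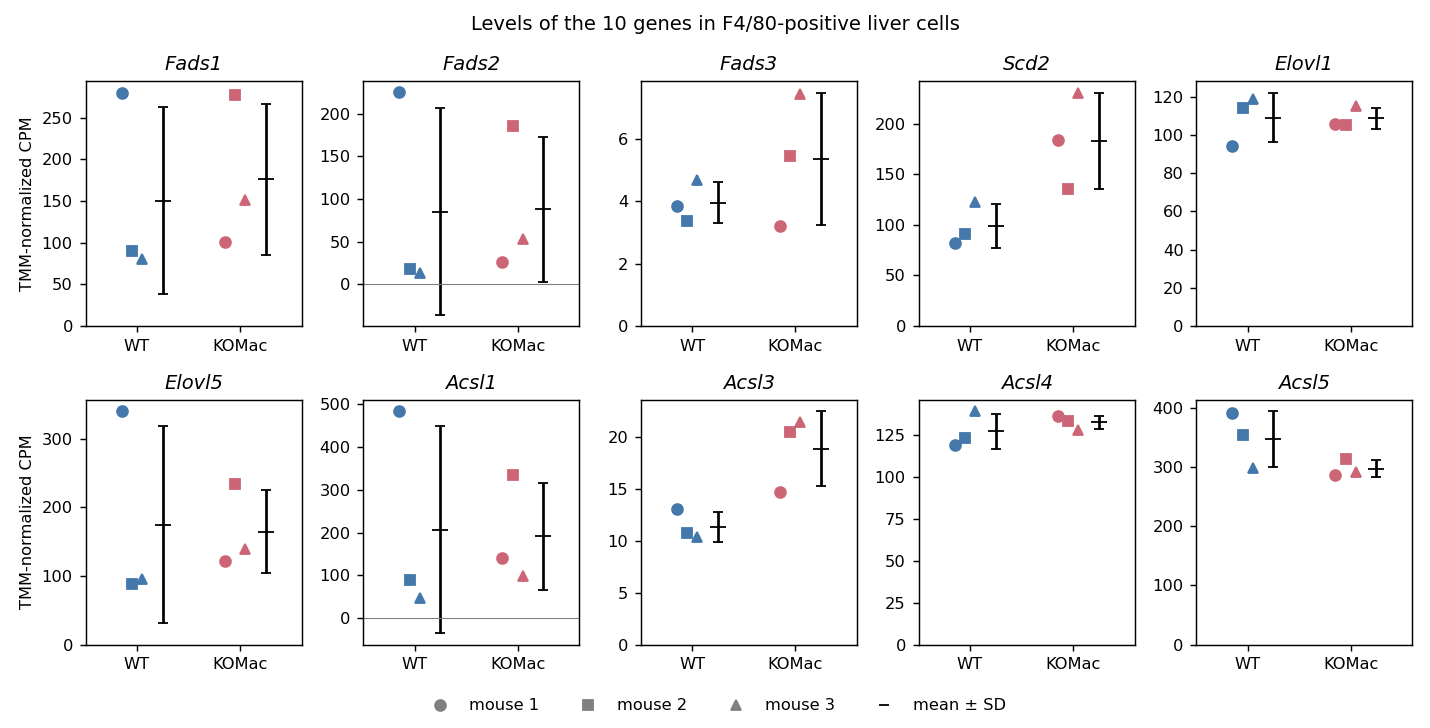
Levels of the 10 genes in TMM-normalized CPM (y axis, linear, a separate scale for each gene) in WT and Lpcat3 KOMac mice (x axis, KOMac). Each symbol is 1 mouse and the black bars are the mean ± SD of 3 mice. The Lpcat3 KOMac symbols lie above all WT symbols for *Scd2* and *Acsl3*, while WT mouse 1 (circle) and Lpcat3 KOMac mouse 2 (square) are the highest of their groups for *Fads1*, *Fads2*, *Elovl5* and *Acsl1*.

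Levels of different genes were compared as CPM per kilobase of exonic length. In WT cells *Acsl5*, a synthetase of the endoplasmic reticulum and mitochondria, was the highest of the 10 at 110 ± 14.8 CPM per kilobase (SD, n = 3), and its level over all libraries exceeded that of 97% of the genes tested. *Fads2* followed at 56.5 ± 80.2, *Elovl5* at 49.5 ± 40.8, *Fads1* at 43.6 ± 32.5 and *Elovl1* at 40 ± 4.74 CPM per kilobase (SD, n = 3 each). *Acsl5* was above *Fads2* in 4 of 6 libraries, and the order among *Fads2*, *Elovl5*, *Fads1* and *Elovl1* changed from mouse to mouse, so these neighbours did not differ beyond their spread. The mean of *Fads2* rests on WT mouse 1, at 225 CPM. In WT mice 2 and 3, at 17.4 and 13.4 CPM, *Fads2* was below *Acsl4* per kilobase. *Elovl1* was above *Acsl4* (23.5 ± 1.9 CPM per kilobase, SD, n = 3) in 6 of 6 libraries. *Acsl1* at 19.7 ± 23.1 and *Scd2* at 18.1 ± 3.9 CPM per kilobase (SD, n = 3 each) overlapped each other. *Acsl3* at 2.6 ± 0.341 and *Fads3* at 1.21 ± 0.201 CPM per kilobase (SD, n = 3 each) were the lowest in WT cells, and *Scd2*, *Acsl3* and *Fads3* kept this order in 6 of 6 libraries. The exonic length of *Fads2* in the tables is 1508 bases, where its gene model ends 1399 bases before the 3′ end given in GENCODE M21, and that of *Acsl5*, with 3150 exonic bases, starts 1431 bases after and ends 1093 bases before the M21 gene. The model of *Fads3* ends 439 bases short of it. Levels and shares per kilobase of these genes rest on the shorter models.

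*Scd2* (ENSMUSG00000025203, chromosome 19 of GRCm38, 44293676 to 44306864, plus strand) encodes a stearoyl-CoA desaturase, which makes monounsaturated fatty acids. It was at 82.4, 90.7 and 123 CPM in WT and 184, 135 and 230 CPM in Lpcat3 KOMac mice. The lowest Lpcat3 KOMac mouse thus lay just above the highest WT mouse. Means were 98.6 ± 21.3 CPM for WT and 183 ± 47.4 CPM for Lpcat3 KOMac cells (SD, n = 3 each), a 1.86-fold higher level with a 95% interval from 1.23 to 2.82. The log2 fold change was 0.89 (standard error 0.24, unadjusted p = 0.0111 and adjusted p = 1 by the quasi-likelihood test of edgeR, Benjamini-Hochberg adjusted over all genes, higher in 3 of 3 Lpcat3 KOMac mice). The exact permutation test gave a two-sided p = 0.1, the smallest it allows. When single mice were left out, the log2 fold change lay between 0.73 and 1.09, and it was 0.96 (standard error 0.19) without both WT mouse 1 and Lpcat3 KOMac mouse 2. With the hepatocyte covariate it was 0.98 in edgeR (adjusted p = 0.489 from the quasi-likelihood test) and 0.99 in DESeq2 (adjusted p = 0.000586), the covariate in DESeq2 being a choice made after seeing the data. DESeq2 without it gave 0.91 (adjusted p = 0.453). The close paralog *Scd1* lies on the same chromosome, and how reads shared by both were counted is not given in the sources used here.

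*Acsl3* (ENSMUSG00000032883, chromosome 1, 78657825 to 78707743, plus strand) encodes an acyl-CoA synthetase of the endoplasmic reticulum and lipid droplets. The WT libraries held it at 13, 10.7 and 10.3 CPM, and those of Lpcat3 KOMac mice 1 to 3 at 14.7, 20.4 and 21.4 CPM. Lpcat3 KOMac mice 2 and 3 were well above all WT mice, and Lpcat3 KOMac mouse 1 was only just above WT mouse 1. The means of 11.3 ± 1.49 CPM in WT and 18.8 ± 3.62 CPM in Lpcat3 KOMac cells (SD, n = 3 each) gave a fold of 1.66 with a 95% interval from 1.21 to 2.28. The log2 fold change was 0.73 (standard error 0.19, unadjusted p = 0.00842 and adjusted p = 1 from the same edgeR test, higher in 3 of 3 Lpcat3 KOMac mice), and the exact permutation test gave a two-sided p = 0.1. Leaving out single mice moved it between 0.66 and 0.92, and leaving out both hepatocyte-rich libraries gave 0.78 (standard error 0.21). With the hepatocyte covariate it was 0.68 in edgeR (adjusted p = 0.489 by the quasi-likelihood test). In DESeq2 it was 0.74 without the covariate (adjusted p = 0.474) and 0.69 with it (adjusted p = 0.036), the latter chosen after seeing the data. *Utp14b*, a gene on the same strand within the *Acsl3* locus, shares 244 exonic bases with it. *Utp14b* was at 4.54, 4.37 and 4.24 CPM in WT and 5.91, 6.79 and 8.41 CPM in Lpcat3 KOMac mice, also without overlap, and differed by 0.68 on the log2 scale in edgeR (standard error 0.18, with an adjusted p = 0.0925 in DESeq2 with the hepatocyte covariate). The part of shared reads in either value was not tested.

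Markers of the other cell types that the bead-purified cells could hold are given beside these genes. The 8 sinusoidal endothelial genes summed to 1059 to 1188 CPM in WT and to 1122 to 1499 CPM in Lpcat3 KOMac libraries. Of these, 7 of 8 had positive log2 fold changes, and *Kdr* and *Ptprb* had unadjusted p-values under 0.05. Both were highest in Lpcat3 KOMac mouse 1, at 169 and 170 CPM, and were at 91.5 and 90.4 CPM in Lpcat3 KOMac mouse 3. The 5 genes of recruited monocytes and macrophages summed to 106 to 450 CPM in WT and to 424 to 462 CPM in Lpcat3 KOMac libraries, and 5 of 5 had positive log2 fold changes. *Gpnmb*, a gene of lipid-associated macrophages, was at 89, 22.2 and 164 CPM in WT and 237, 182 and 199 CPM in Lpcat3 KOMac mice, without overlap. Neutrophil genes summed to 81.5 to 159 CPM in WT and 82.5 to 144 CPM in Lpcat3 KOMac libraries, a sum made up mostly of *Csf3r*, which was at 74.7 to 155 CPM and had a log2 fold change of -0.17. The other 4 neutrophil genes tested had positive log2 fold changes of 0.8 or more, with a median of 0.81 over all 5, at levels of at most 3.8 CPM. The defining gene *Ly6g* was at 0 in 3 libraries and at most 0.0637 CPM. The neutrophil gene *S100a8*, at most 2.19 CPM, and the T cell gene *Cd3d*, at most 0.255 CPM, were higher in every Lpcat3 KOMac than in every WT library. The 8 Kupffer cell genes summed to 29695 to 41311 CPM in WT and 23391 to 32477 CPM in Lpcat3 KOMac libraries. Stellate cell genes summed to 76.2 to 201 CPM in WT and 144 to 264 CPM in Lpcat3 KOMac libraries, and 6 of 6 had positive log2 fold changes, with a median of 0.38. Cholangiocyte genes summed to 0.319 to 0.678 CPM in WT and 0.895 to 1.14 CPM in Lpcat3 KOMac libraries, without overlap, and 3 of 3 tested had positive log2 fold changes. Lymphocyte genes summed to 14.9 to 25.7 CPM in WT and 18.5 to 20.8 CPM in Lpcat3 KOMac libraries, and 5 of 6 had positive log2 fold changes, with a median of 0.1. The part of these cells in the levels of *Scd2* and *Acsl3* was not tested.

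*Fads3* (ENSMUSG00000024664, chromosome 19, 10041548 to 10059671, plus strand), a desaturase of the same cluster as *Fads1* and *Fads2*, was at 3.85, 3.35 and 4.66 CPM in WT and 3.2, 5.46 and 7.42 CPM in Lpcat3 KOMac mice. The genotypes overlapped, since Lpcat3 KOMac mouse 1 was the lowest of all 6. Its log2 fold change was 0.44 (standard error 0.34) with a 95% interval from -0.4 to 1.28, and its library order, with Lpcat3 KOMac mouse 3 highest, was not that of the hepatocyte genes. It was 0.17 without Lpcat3 KOMac mouse 3 and 0.74 without Lpcat3 KOMac mouse 1.

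*Elovl1*, *Acsl4* and *Acsl5* were the steadiest members. *Elovl1* (ENSMUSG00000006390, chromosome 4, 118428093 to 118432953, plus strand), which elongates saturated and monounsaturated very-long-chain fatty acids, was at 94.4, 114 and 119 CPM in WT and 106, 105 and 115 CPM in Lpcat3 KOMac mice. The genotypes overlapped fully, with means of 109 ± 12.9 and 109 ± 5.28 CPM (SD, n = 3 each). Its fold was 0.997 with a 95% interval from 0.827 to 1.2. It overlaps *Cdc20* on the other strand by 53 exonic bases, and *Cdc20* had at most 494 counts in any library, beside at least 5402 for *Elovl1*.

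*Acsl4* (ENSMUSG00000031278, chromosome X, 142317993 to 142390535, minus strand), the synthetase that prefers arachidonic acid, was at 119, 123 and 139 CPM in WT and 136, 133 and 128 CPM in Lpcat3 KOMac mice. All Lpcat3 KOMac values lay within the WT range. The highest library exceeded the lowest by 1.16-fold, the smallest range of the 10 genes. Its log2 fold change was 0.06 (standard error 0.09), with a 95% interval of the fold from 0.898 to 1.21. Leaving out single mice moved it between 0.02 and 0.13, the lowest without WT mouse 1 and the highest without WT mouse 3.

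*Acsl5* (ENSMUSG00000024981, chromosome 19, 55253369 to 55296627, plus strand), a synthetase found on several membranes, was at 391, 354 and 298 CPM in WT and 286, 313 and 292 CPM in Lpcat3 KOMac mice. WT mice 1 and 2 were above all Lpcat3 KOMac mice, and WT mouse 3 lay among them. The log2 fold change was -0.23 (standard error 0.12, unadjusted p = 0.109 and adjusted p = 1 in edgeR). Without WT mouse 1 it was -0.13. With the hepatocyte covariate it was -0.27 (standard error 0.08, unadjusted p = 0.0185 and adjusted p = 0.491 from the same test).

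*Fads1*, *Fads2*, *Elovl5* and *Acsl1* had WT mouse 1 and Lpcat3 KOMac mouse 2 as their highest libraries, 4 of the 10 members, against 21.8% of all genes tested. *Fads2* (ENSMUSG00000024665, chromosome 19, 10064164 to 10101503, minus strand), whose product takes the first desaturation step from linoleic acid, was at 225, 17.4 and 13.4 CPM in WT and 25.8, 185 and 53 CPM in Lpcat3 KOMac mice. Its range over the 6 libraries, 16.8-fold, was wider than the 11.9-fold range of the hepatocyte sum. It lay within the ranges of the single hepatocyte genes, which ran from 10.8-fold for *Alb* to 19.3-fold for *Apoa2*. *Acsl1* (ENSMUSG00000018796, chromosome 8, 46471037 to 46536051, plus strand), the main acyl-CoA synthetase of hepatocytes and adipocytes, was at 485, 88.1 and 46.5 CPM in WT and 141, 334 and 98.9 CPM in Lpcat3 KOMac mice. The 6 libraries stood in the same order for *Acsl1* as for the hepatocyte sum.

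*Fads1* (ENSMUSG00000010663, chromosome 19, 10182888 to 10196870, plus strand), which makes arachidonic acid in the last desaturation step, was at 280, 90.6 and 80.9 CPM in WT and 101, 277 and 151 CPM in Lpcat3 KOMac mice. *Elovl5* (ENSMUSG00000032349, chromosome 9, 77917364 to 77984519, plus strand), the elongase between both desaturation steps, was at 340, 87.8 and 95.1 CPM in WT and 121, 234 and 139 CPM in Lpcat3 KOMac mice. Their ranges were 3.46-fold and 3.88-fold, narrower than that of *Fads2*. In each of these 4 genes the 2 other Lpcat3 KOMac mice were above the 2 other WT mice.

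The genotype difference of these 4 genes could not be fixed with these libraries. Their log2 fold changes were 0.23 (standard error 0.62) for *Fads1*, 0.04 (standard error 1.32) for *Fads2*, -0.08 (standard error 0.62) for *Elovl5* and -0.11 (standard error 0.98) for *Acsl1*, and the 95% interval of *Fads2* ran from -3.25 to 3.34. Without WT mouse 1 they were 1.04, 2.52, 0.85 and 1.51, and without Lpcat3 KOMac mouse 2 they were -0.25, -1.12, -0.42 and -0.79. Their direction thus depended on a single library of either genotype. Without both libraries they were 0.56 (standard error 0.21), 1.36 (standard error 0.38), 0.51 (standard error 0.11) and 0.83 (standard error 0.35), with adjusted p-values between 0.155 and 0.519 in edgeR's quasi-likelihood test. In these 4 remaining libraries the hepatocyte sum was also higher in Lpcat3 KOMac (4990 and 5217 CPM) than in WT mice (1920 and 2068 CPM). With only WT mouse 1 left out, it was likewise higher in every Lpcat3 KOMac mouse (4990 to 14131 CPM) than in WT mice 2 and 3.

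When the fit also held the mean log2 level of the hepatocyte genes, the log2 fold changes were 0.07 (standard error 0.23) for *Fads1*, 0.18 (standard error 0.4) for *Fads2*, -0.17 (standard error 0.14) for *Elovl5* and -0.12 (standard error 0.22) for *Acsl1*. The standard errors were smaller than without the covariate in all 4. The adjusted p-values in this edgeR quasi-likelihood fit lay between 0.732 and 0.944 for these genes.

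**Figure D2:**
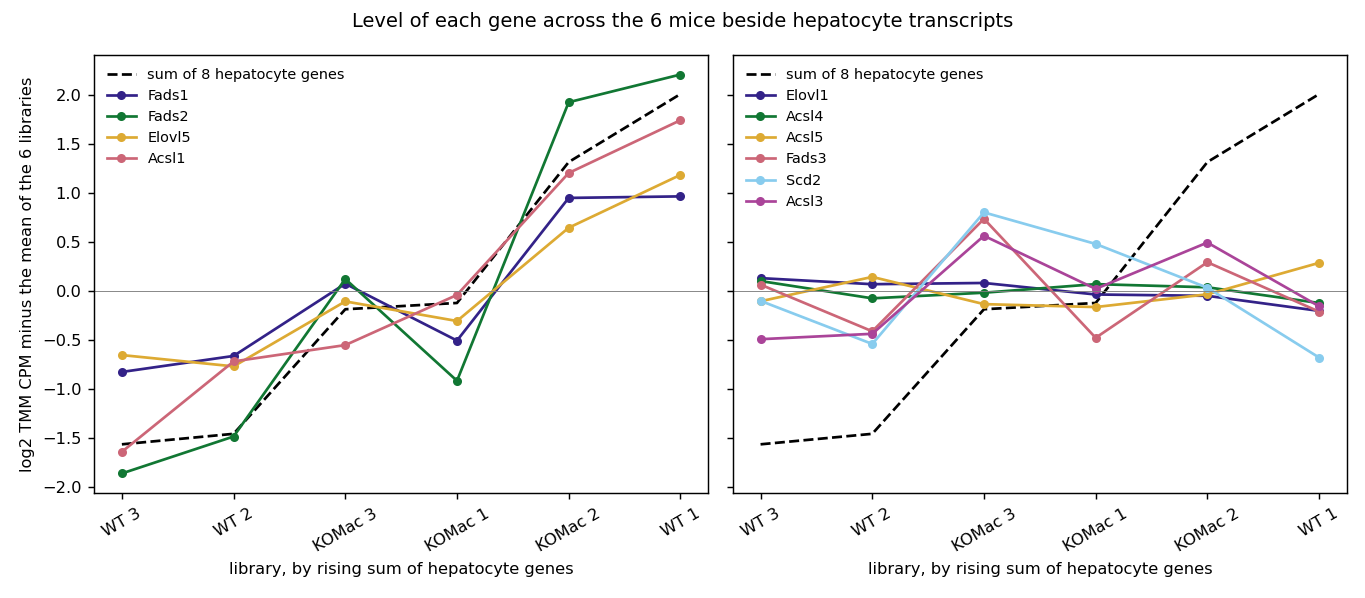
The log2 TMM-normalized CPM of each gene minus its mean over the 6 libraries (y axis), with the libraries ordered by rising sum of 8 hepatocyte genes (x axis, KOMac is Lpcat3 KOMac). The dashed line is the hepatocyte sum on the same scale. In the left panel *Fads1*, *Fads2*, *Elovl5* and *Acsl1* end highest in Lpcat3 KOMac mouse 2 and WT mouse 1. In the right panel none of the other 6 genes has both of these libraries as its 2 highest, though *Acsl5* is highest in WT mouse 1.

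**Figure D3:**
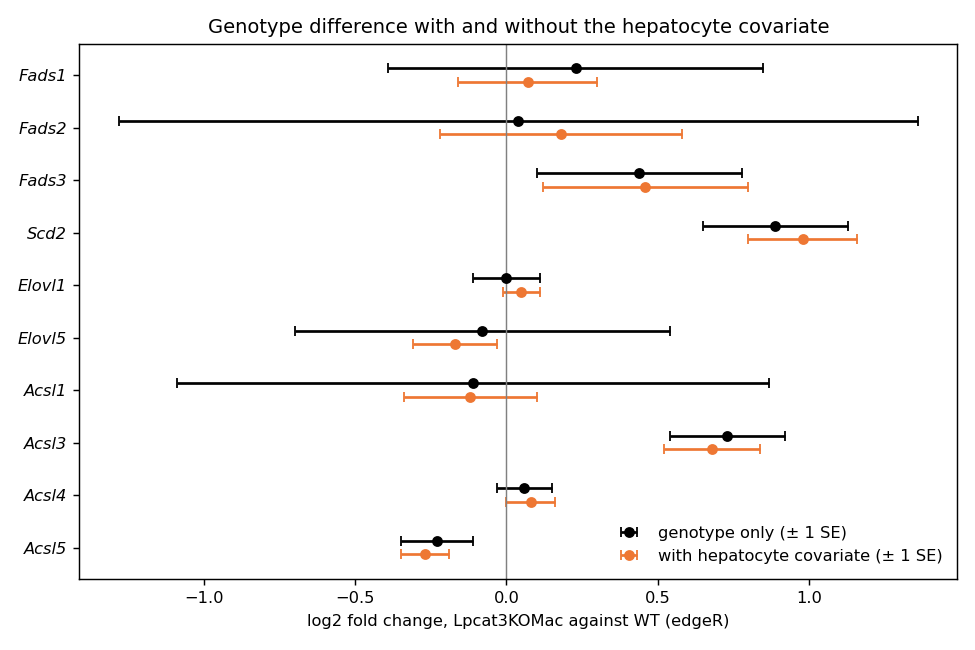
Log2 fold change of each gene, Lpcat3 KOMac against WT (x axis, edgeR), with genotype as the only term (black) and with the hepatocyte covariate (orange). Points are estimates and bars ± 1 standard error. The bars of *Fads1*, *Fads2*, *Elovl5* and *Acsl1* are shorter with the covariate, and *Scd2* and *Acsl3* stay at 0.89 and 0.98 and at 0.73 and 0.68.

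Promoter sequence was taken from RefSeq (GRCm38.p6) for 8 of the 10 genes, as the 250 bases before each annotated start, 10 windows in all. They are shown for *Acsl3*, whose genotypes did not overlap, and for *Elovl5* and *Acsl1*, which shared their highest libraries. *Fads2* shared these libraries as well, but its window, which holds neither of the sequences marked below, is not shown. Capitals mark the letters TCACNCCAC, a core of the sterol regulatory element, and CCAAT, the box bound by NF-Y, on either strand.
Acsl3, chr1:78657575-78657824, plus strand: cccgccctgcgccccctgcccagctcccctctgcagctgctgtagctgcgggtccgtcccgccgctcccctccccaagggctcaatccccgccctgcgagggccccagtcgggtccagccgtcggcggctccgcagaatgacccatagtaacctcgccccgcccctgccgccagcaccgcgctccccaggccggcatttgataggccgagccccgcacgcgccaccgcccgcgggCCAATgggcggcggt
Elovl5, chr9:77917115-77917364, plus strand: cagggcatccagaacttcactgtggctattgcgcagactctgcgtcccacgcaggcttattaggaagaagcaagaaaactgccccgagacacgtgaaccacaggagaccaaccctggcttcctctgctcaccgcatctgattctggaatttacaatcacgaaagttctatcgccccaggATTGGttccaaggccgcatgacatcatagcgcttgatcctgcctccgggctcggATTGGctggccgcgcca
Acsl1, first start, chr8:46470787-46471036, plus strand: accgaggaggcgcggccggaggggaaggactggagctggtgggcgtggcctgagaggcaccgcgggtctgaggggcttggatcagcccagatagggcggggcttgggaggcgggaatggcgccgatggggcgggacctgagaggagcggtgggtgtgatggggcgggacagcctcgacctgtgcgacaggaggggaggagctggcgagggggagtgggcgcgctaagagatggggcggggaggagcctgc
Acsl1, second start, chr8:46490716-46490965, plus strand: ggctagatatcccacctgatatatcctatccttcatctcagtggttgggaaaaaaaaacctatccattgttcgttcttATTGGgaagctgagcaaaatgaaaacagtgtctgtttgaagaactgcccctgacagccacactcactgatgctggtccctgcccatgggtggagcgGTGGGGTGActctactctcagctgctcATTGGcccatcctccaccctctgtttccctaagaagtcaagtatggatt
TCACNCCAC was found in 1 of the 10 windows, at the second start of *Acsl1*, 76 to 68 bases before it and on the minus strand, and 1.05% of all 32851 windows of this length hold it. The window of *Acsl3* holds 1 CCAAT box, 15 to 11 bases before the start, the window of *Elovl5* holds 2 and the second window of *Acsl1* holds 2, while 33.8% of all windows hold at least 1. Of the windows not shown, those of *Fads3* and *Acsl5* and the first of *Elovl1* also hold the box. The windows of *Fads2* and *Acsl4*, the second of *Elovl1* and the first of *Acsl1* do not. Of the 250 bases of the *Fads2* window, 243 lie in exons given in GENCODE M21, so most of it is inside the M21 gene. The windows also differ in base composition, with 75.6% G and C for *Acsl3*, 72% at the first and 48.4% at the second start of *Acsl1*. The counts are summed over each gene and do not tell its starts apart.

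The make-up of the acyl-CoA synthetase transcripts was compared within each library, as the share of each gene in the summed counts per kilobase of *Acsl1*, *Acsl3*, *Acsl4* and *Acsl5*. *Acsl5* held the most in 6 of 6 libraries, at 63.5%, 76.9% and 74.4% in WT and at 68.4%, 61.9% and 70.9% in Lpcat3 KOMac mice. The share of *Acsl1* was 23.7%, 5.76% and 3.49% in WT and 10.1%, 19.9% and 7.22% in Lpcat3 KOMac mice, in the order of the hepatocyte sum. That of *Acsl4* was 11.3%, 15.6% and 20.2% in WT and 19%, 15.3% and 18.2% in Lpcat3 KOMac mice. The share of *Acsl3* was 1.53%, 1.69% and 1.85% in WT and 2.54%, 2.92% and 3.76% in Lpcat3 KOMac mice, without overlap. Its mean was 1.69% ± 0.161 in WT and 3.07% ± 0.625 in Lpcat3 KOMac cells (SD, n = 3 each, exact permutation test, two-sided p = 0.1 and adjusted p = 0.4 over the 4 genes). For the other shares the exact permutation p-values were 0.8, 0.7 and 0.4 for *Acsl1*, *Acsl4* and *Acsl5*.

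**Figure D4:**
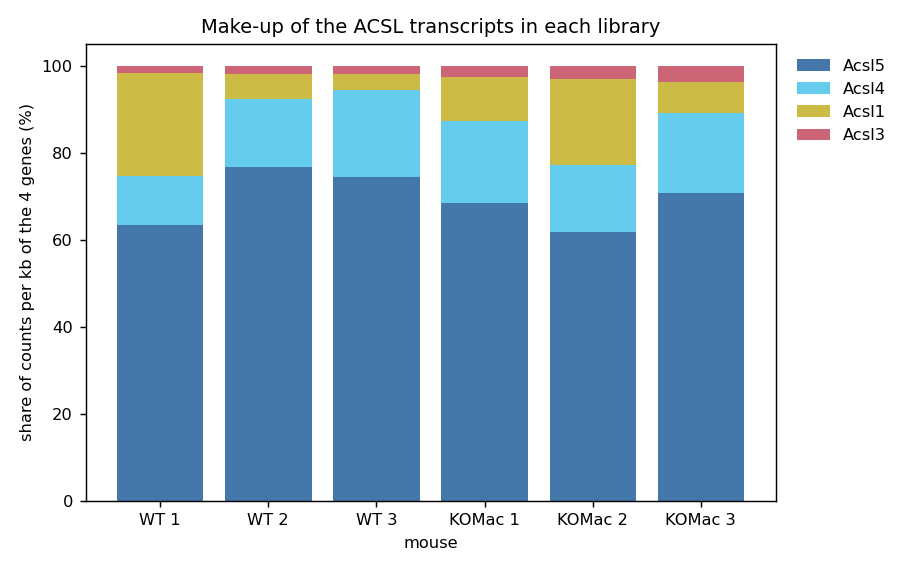
Share of *Acsl5*, *Acsl4*, *Acsl1* and *Acsl3* in the summed counts per kilobase of the 4 genes (y axis, percent) in each mouse (x axis, KOMac is Lpcat3 KOMac). *Acsl5* fills 61.9% to 76.9% of each bar, and the band of *Acsl3* at the top is 1.53% to 1.85% in WT and 2.54% to 3.76% in Lpcat3 KOMac mice.

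The wider pathway was read from a list of 49 other genes, of which 43 had enough counts to be tested. The quasi-likelihood test of edgeR called 0 of the 43 after adjustment, and none passed 0.05 before adjustment either, as 2.64% of all genes did. Without WT mouse 1, 15 pathway genes passed 0.05 before adjustment, and 15 without both hepatocyte-rich libraries, beside 2028 and 1767 of all genes. None of the pathway genes was called after adjustment in either fit. In the libraries left in each of these fits, the hepatocyte sum was also higher in every Lpcat3 KOMac mouse than in every WT mouse. Of the 43, 11 had a positive and 32 a negative log2 fold change, with a median of -0.08 beside -0.04 for all genes. DESeq2 with the hepatocyte covariate, chosen after seeing the data, called 1 of them, *Cyb5a*, with a log2 fold change of -0.25 (adjusted p = 0.0218 from DESeq2). WT mouse 1 and Lpcat3 KOMac mouse 2 were the highest libraries for 24 of the 43 genes (55.8%), against 21.8% of all genes.

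The highest gene of each group per kilobase was as follows. *Scd1*, the main stearoyl-CoA desaturase of the liver, was at 2024, 317 and 477 CPM in WT and 784, 2429 and 880 CPM in Lpcat3 KOMac mice. Its log2 fold change was 0.54 (standard error 0.85), and unlike *Scd2* it was highest in the hepatocyte-rich libraries. *Elovl2*, the elongase that acts after *Elovl5* on longer polyunsaturated chains, was at 197, 14.7 and 10.1 CPM in WT and 33, 123 and 44.9 CPM in Lpcat3 KOMac mice, a pattern close to that of *Fads2*. *Hsd17b12*, the reductase shared by all elongases, differed by -0.04 on the log2 scale (standard error 0.23), and *Cyb5a*, the cytochrome that passes electrons to the desaturases, by -0.23 (standard error 0.68). The log2 fold changes of *Slc27a2*, a fatty acid transport protein with synthetase activity, and of *Acot1*, a cytosolic thioesterase that splits acyl-CoA again, were -0.19 (standard error 1.18) and -0.24 (standard error 0.19). *Dbi*, the acyl-CoA binding protein, and *Scp2*, a thiolase of peroxisomes, had values of -0.21 (standard error 0.66) and -0.33 (standard error 0.82). The large standard errors belong to genes with wide ranges between mice of 1 genotype. By group, the median log2 fold change was 0.17 for the other desaturases, -0.14 for the other elongases, -0.03 for the partners of the elongation cycle and -0.07 for the electron donors of the desaturases. It was -0.17 for the other acyl-CoA synthetases, -0.07 for the thioesterases, -0.06 for the acyl-CoA binding proteins and -0.13 for the peroxisomal genes.

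**Figure D5:**
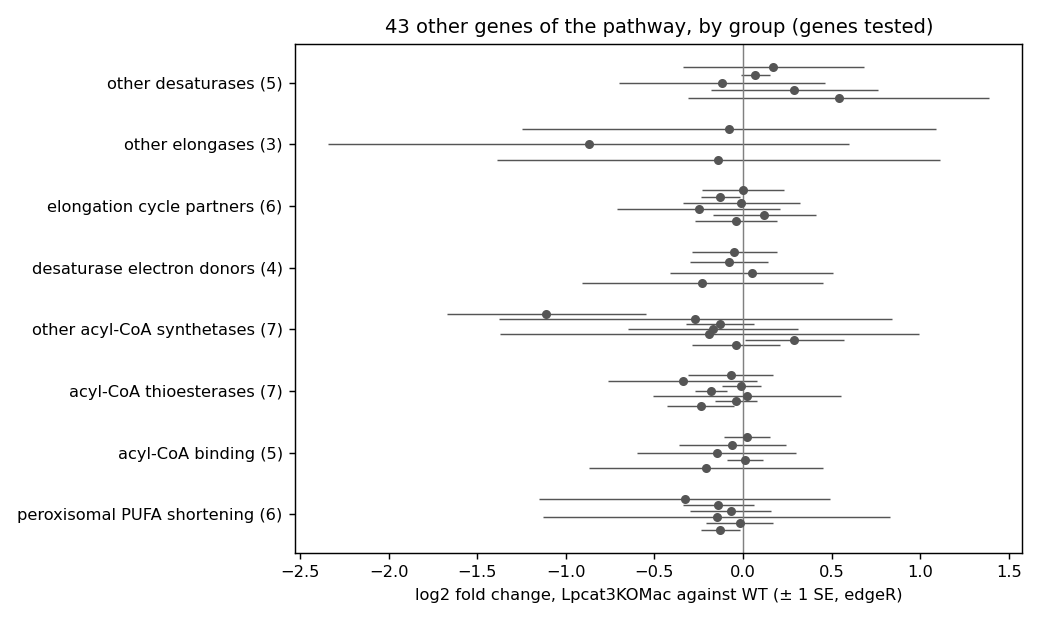
Log2 fold change, Lpcat3 KOMac against WT (x axis, edgeR), of the 43 other pathway genes that were tested, by group (y axis, number of genes tested in brackets). Points are estimates and bars ± 1 standard error. Unadjusted p-values were 0.05 or more for all 43, and the estimates ran from -1.11 to 0.54.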

How the data were processed

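RNA of F4/80-positive liver cells from 3 WT and 3 Lpcat3 KOMac mice was sequenced from poly-A libraries, 1 per mouse. The authors deposited raw counts of reads per Ensembl gene for each library. Their processing notes name Trimmomatic 0.36, STAR 2.5.2b, featureCounts of Subread 1.5.2 and GRCm38, while the strand setting and the handling of shared reads are not given in the sources used here. Of 49315 gene identifiers, 48970 had a symbol in GENCODE M21.

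Counts were compared with edgeR 4.0.16 (R 4.3.3) by TMM normalization, the default filter (minimum count 10) and the robust quasi-likelihood test on genotype alone. Benjamini-Hochberg adjustment covered all 16134 genes tested, and 0.05 was the threshold. Each standard error was obtained by dividing the size of the log2 fold change by the root of its F statistic. Log2 CPM for the covariate used a prior count of 2. Single values were tested with two-sided exact permutation tests. DESeq2 1.42.0 and limma 3.58.1 (voom) served as alternatives, besides other scalings and filters, a replicate block, a length offset and leaving out mice. The fits to all 6 libraries were also run on simulated data, and those with mice left out were not. The simulated data had less spread between mice than these libraries and no difference in hepatocyte level. Named were all members, *Lpcat3*, and of the pathway lists any gene called, with an unadjusted p-value under 0.05 or separated by genotype with a 1.5-fold change, and the highest of each group. *Utp14b*, *Cdc20* and single marker genes were named after their values were seen. The members and lists were chosen with earlier results of these data known. P-values weigh each genotype difference against the spread between these mice. Lipid, PCR and histology data were not analysed here.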

Additional observations from a re-analysis of the deposited data

How the results depend on the processing

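The number of members called was 0 in these alternatives (other scalings, filters and dispersion, limma-voom, DESeq2, the replicate block, the hepatocyte covariate, the length offset and each mouse left out, range 0 to 0) and without both hepatocyte-rich libraries, and 2 with DESeq2 and the hepatocyte covariate, chosen after seeing the data. Over all genes DESeq2 called 15 and DESeq2 with the covariate 160, and of the pathway genes the latter called 1. *Lpcat3* passed the threshold in DESeq2 without (-1.55) and with the covariate (-1.67), and lay between -1.85 and -1.39 with each mouse left out. *Scd2*, *Acsl3*, *Fads3*, *Acsl4* and *Acsl5* kept their direction in every alternative run, though *Fads3* ranged from 0.17 to 0.74, *Acsl4* from 0.02 to 0.13 and *Acsl5* from -0.33 to -0.13 with each mouse left out. Total counts alone moved the median of all genes by 0.096.

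Other directions were not stable, and the cause was not tested. *Fads1* ranged from -0.25 to 1.04 with each mouse left out (-0.04 without WT mouse 2, -0.07 without WT mouse 3) and *Fads2* from -1.12 to 2.52 (-0.44 and -0.46 without WT mice 2 and 3). *Elovl5* ranged from -0.42 to 0.85 (0.13 and 0.05 without Lpcat3 KOMac mice 1 and 3) and was 0.16 in limma-voom, 0.05 with total counts and 0.51 without both hepatocyte-rich libraries. *Acsl1* ranged from -0.79 to 1.51 (0.09 and 0.22 without Lpcat3 KOMac mice 1 and 3) and was 0.41 in limma-voom, 0.04 with total counts and 0.83 without both libraries. *Elovl1*, close to 0, ranged from -0.1 to 0.06 with single mice left out and was 0.01 with DESeq2 and its size factors, 0.06 and 0.05 with the covariate in DESeq2 and edgeR, 0.00 with at least 10 counts in every library and in limma-voom, 0.08 with total counts and 0.04 with the length offset.

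The shares of *Acsl1*, *Acsl3*, *Acsl4* and *Acsl5* differed between genotypes by 1.43, 1.38, 1.76 and -4.57 points, and with each mouse left out by -2.31 to 7.77, 1.04 to 1.65, -0.45 to 4.01 and -8.62 to -1.93 points, with the same directions in raw counts or with *Acsl6* included. In the fit with the replicate block 0 genes were called and 138 had an unadjusted p-value under 0.05, against 426 without it. *Elovl1*, *Elovl5* and *Acsl1* were at 0.00, 0.19 and 0.50 with the replicate block, and *Scd2* and *Acsl3* at 0.88 and 0.72. Deviations of same-numbered mice from their genotype means correlated at -0.303, -0.596 and 0.36 across genes. With 3 mice per genotype, and hepatocyte transcripts highest in mice of different numbers, these values cannot decide whether the numbers pair the mice.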
